A study of Drosophila melanogaster with 18 samples.

Results

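Pepck1, CG5065 and CG13856 are 3 Drosophila melanogaster genes whose transcripts the study examined on Northern blots as ones induced at pupariation with little dependence on the ecdysone receptor EcR. They were taken here as the probe sets annotated to exactly 1 of these symbols, which gave 3 probe sets of the 13966 on the array and 3 genes of the 10844 with a probe set of their own. The w1118 strain served as control. The EcRi strain held hs-EcRi-11, a transgene under a heat-shock promoter that makes double-stranded RNA against the region common to all EcR transcripts, and its last-stage larvae were heat-treated in the day before they pupariated. Whether controls were heated too is not stated in the sources read, so the transgene, the genetic background and the heat treatment cannot be told apart in any difference between the strains. Each strain was sampled 4 h before pupariation (-4 h), at pupariation (0 h) and 4 h after it (4 h), which made 6 groups of 3 arrays, with 10 whole animals behind each RNA sample. According to the study, the EcRi animals all stopped development as elongated prepupae.

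The steroid 20-hydroxyecdysone (20E) acts through a heterodimer of EcR and Usp, and its pulse at the end of larval life triggers pupariation, when the larva contracts and its cuticle hardens into the puparium. Feeding has ended by then, and the animal lives on the stores of its fat body until it ecloses. Pepck1 encodes phosphoenolpyruvate carboxykinase, which turns oxaloacetate into phosphoenolpyruvate and so commits carbon to gluconeogenesis or, through glycerol 3-phosphate, to the backbone of new triglycerides. CG5065 is annotated with the synonym FAR1, a fatty acyl-CoA reductase, one of a family of enzymes that reduce fatty acyl-CoA to fatty alcohols, which serve in waxes, cuticular hydrocarbons and related lipids. No function is stated here for CG13856.

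The study calls the second of these genes by both the number CG5056 and the number CG5065, naming the primers of its blot probe CG5065 and the blot CG5056. The 2 numbers are different genes on the array, and both are described below. For CG13856, the primers that bound its blot probe are shown because they say which gene was followed. A probe made from genomic DNA between them need not share sequence with the array's probe set. Each primer is 20 bases long and written 5′ to 3′.
CG13856 left primer: tggcatcgctaatcatcttg
CG13856 right primer: ccgtcagaccggacttttta
The gene lies on chromosome arm 3R in the Release 6 annotation.

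All values are dChip intensities on a linear scale, and changes are log2 differences of group means with the standard error (SE) of a limma fit across all probe sets. A call required an adjusted p (Benjamini-Hochberg) under 0.10 together with a difference of 1.5-fold or more. Values below 91.6, the 20th percentile of all values on the arrays, were raised to that floor before logs were taken, and no value of the 3 genes lay below it. Array medians ran from 221.6 to 247.6, and 21 of the 54 values of the 3 genes lay under the lowest of these medians, all of them of CG5065 and CG13856. Defining genes of fat body (Lsp2, Fbp1), salivary gland (Sgs3, Sgs4), midgut (Jon25Biii, Jon99Fii) and epidermis (Edg84A) were above the floor on all 18 arrays of these whole-animal samples. The lowest values of Sgs4 (117.1), Jon25Biii (132.1) and Edg84A (136.6) lay under the lowest array median. Being above the floor therefore does not show RNA of each tissue on every array. Lsp1beta, Lcp2 and the muscle genes Mhc and Act57B had no probe set of their own, so muscle was not checked. The array of control -4 h replicate 1 and that of EcRi 0 h replicate 1 stood apart. Their highest correlation with any other of the 18 arrays, of whatever group, was 0.939 and 0.933. For the 3 arrays of EcRi at 4 h it was 0.974 to 0.976, and for each remaining array 0.992 or more.

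Pepck1 was bright on every array and rose towards the prepupal stage in both strains. In controls its intensity was 2134, 2911 and 2251 on the 3 arrays before pupariation (-4 h), 4255, 3322 and 2960 at 0 h, and 7778, 7333 and 7480 in prepupae of 4 h. The arrays of each stage lay wholly above those of the stage before, and the 3 arrays at 4 h lay close together. From 0 to 4 h Pepck1 rose by 1.12 ± 0.176 on the log2 scale, which is 2.17-fold (limma, adjusted p = 0.0013). In EcRi animals the arrays read 2452, 3103 and 3237 before pupariation, 3503, 5314 and 4348 at 0 h, and 5449, 6750 and 6288 in prepupae of 4 h. Here too every stage lay above the one before without overlap, in more even steps than in controls. The EcRi change from 0 to 4 h was 0.50 ± 0.176 (1.42-fold, limma adjusted p = 0.22, 95% interval 0.12 to 0.89), which did not pass the test.

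CG5065 was dim until pupariation and higher at 4 h. In controls it measured 143, 139 and 131 before pupariation (-4 h), 149, 186 and 142 at 0 h, and 538, 590 and 580 in prepupae of 4 h. The first 2 stages overlapped, and the arrays at 4 h all lay far above both. The control rise from 0 to 4 h was 1.85 ± 0.23, or 3.61-fold (limma, adjusted p = 0.00016), the largest fold of the 3 genes. In EcRi animals CG5065 measured 124, 124 and 178 before pupariation, 167, 256 and 234 at 0 h, and 264, 527 and 397 in prepupae of 4 h. The stages at -4 and 0 h overlapped, and at 4 h the lowest array, replicate 1, lay just above the highest at 0 h. The EcRi change from 0 to 4 h was 0.82 ± 0.23 (1.77-fold, limma adjusted p = 0.11, 95% interval 0.32 to 1.32) and was not called. Without EcRi 4 h replicate 1 it was 1.09 with an adjusted p of 0.031, which passed.

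CG13856 behaved differently before pupariation. Control arrays read 221, 183 and 272 before pupariation (-4 h), 135, 148 and 126 at pupariation, and 437, 425 and 391 at 4 h. The gene was thus at its lowest in newly pupariated control animals, below every array of the stage before, and at its highest 4 h later. Its control rise from 0 to 4 h was 1.62 ± 0.163, or 3.07-fold (limma, adjusted p = 2.5e-05). EcRi arrays read 176, 177 and 160 before pupariation, 210, 190 and 196 at 0 h, and 277, 462 and 375 in prepupae of 4 h. There was no dip at 0 h in this strain, where each stage lay above the one before. CG13856 was the only one of the 3 whose EcRi change from 0 to 4 h passed the test, at 0.87 ± 0.163 or 1.83-fold (limma, adjusted p = 0.020). The call held on leaving out each of the 18 arrays in turn. These fits pool the spread of all groups, and the EcRi intensities spread more at 4 h (SD 92.5) than at 0 h (SD 9.9). In a fit to the compared arrays only, the call was lost (limma, adjusted p = 0.63). In RNA from whole animals, a change in the number of cells that express a gene and a change in the RNA per cell cannot be told apart.

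**Figure D1:**
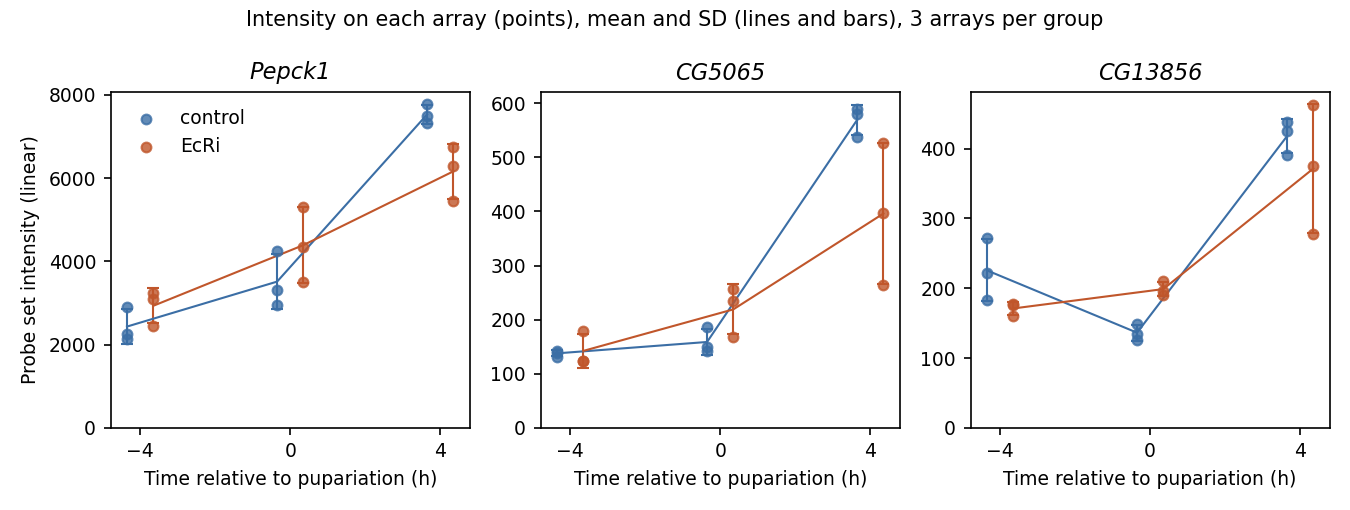
Intensity of each gene (vertical axes, linear, starting at 0) against time relative to pupariation in hours, with 1 point per array, lines through the means of 3 arrays and bars of 1 SD, blue for control and orange for EcRi. The control arrays at 4 h lie close together and far above those at 0 h in all 3 panels, and the EcRi arrays at 4 h spread from 264 to 527 for CG5065 and from 277 to 462 for CG13856.

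Between 0 and 4 h, then, 3 of 3 genes were called higher in controls, where 1.95% of all probe sets were called higher and 2.66% lower. In EcRi animals 1 of 3 was called higher, against 0.687% of all probe sets called higher and 0.78% lower. These were 96 and 109 probe sets, a balance that turned to 142 and 88 after quantile normalisation. The study took such genes from those that changed at pupariation in its time course of w1118 animals and did not depend on EcR. Dependence on EcR was judged in the study from its EcRi arrays at the same stages, which are the EcRi arrays used here. Whether the arrays of the w1118 time course are among the control arrays here was not settled. The calls are therefore not independent evidence that the genes are induced, or that they keep a rise in EcRi animals.

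The label of pupariation genes covers an earlier step as well, from -4 h to 0 h, whose values are given as a description because the choice of the genes may have used it. In controls Pepck1 differed by 0.53 ± 0.176 (1.44-fold higher at 0 h) and CG5065 by 0.20 ± 0.23. CG13856 was lower at 0 h than at -4 h by -0.71 ± 0.163 (1.64-fold lower), which goes against a rise by the time of pupariation. Past both limits for a call there were 0 of 3 higher and 1 of 3 lower, against 1.44% and 1.67% of all probe sets. CG13856 was no longer past them without control -4 h replicate 3 (-0.57), control 0 h replicate 1 (-0.71) or control 0 h replicate 3 (-0.65), and Pepck1 was past them without control -4 h replicate 2 (0.66). In EcRi animals the differences were 0.57 ± 0.176 for Pepck1, 0.62 ± 0.23 for CG5065 and 0.22 ± 0.163 for CG13856, and none of the 3 was past both limits. No probe set at all was called in that comparison by limma (0% of 13966), although 604 had an unadjusted p under 0.05 and SAM (significance analysis of microarrays) called 21. Only the change from 0 to 4 h was tested for the 3 genes, so the test cannot place their rise before or after pupariation. By value, the control changes after 0 h were 1.12, 1.85 and 1.62, against 0.53, 0.20 and -0.71 before it. The changes before and after 0 h share the arrays at 0 h, so a low value there lowers the first and raises the second.

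Over the whole span from -4 to 4 h, a contrast added after the values were seen and given as a description, the control changes were 1.64 ± 0.176 for Pepck1, 2.05 ± 0.23 for CG5065 and 0.91 ± 0.163 for CG13856. The EcRi changes were 1.08, 1.44 and 1.09 with the same errors. For CG13856 the difference of EcRi from control was 0.18 ± 0.231 (95% interval -0.32 to 0.68). For Pepck1 it was -0.57 ± 0.249 and for CG5065 -0.60 ± 0.325.

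**Figure D2:**
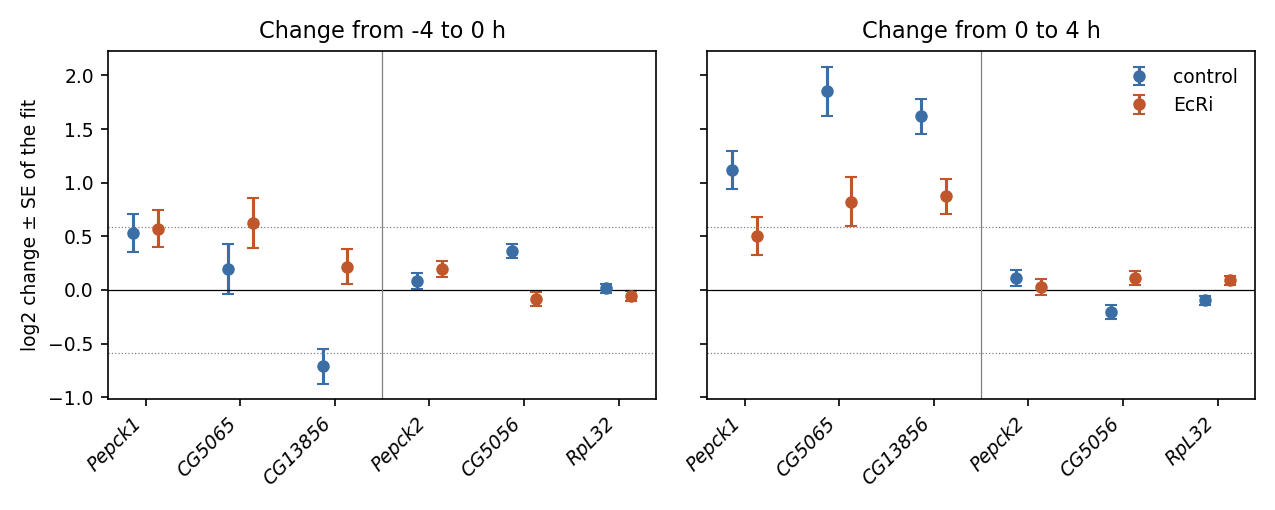
Log2 changes from -4 to 0 h (left) and from 0 to 4 h (right) in control (blue) and EcRi (orange) animals, with bars of 1 SE of the fit and dotted lines at 1.5-fold. To the left of the grey line stand Pepck1, CG5065 and CG13856, to the right Pepck2, CG5056 and RpL32, whose changes from 0 to 4 h all stayed inside the dotted lines. For the first 3 genes the control change from 0 to 4 h (1.12, 1.85 and 1.62) lies above the EcRi change (0.50, 0.82 and 0.87), and CG13856 alone has a change below the lower dotted line, in controls from -4 to 0 h.

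The genes were chosen as not dependent on EcR, so the differences between the strains at 1 stage are also a description. At -4 h EcRi differed from control by 0.27 ± 0.176 for Pepck1, 0.02 ± 0.23 for CG5065 and -0.38 ± 0.163 for CG13856. The strains' arrays overlapped for the first and second genes, and for CG13856 every EcRi array lay below every control array. At 0 h all 3 differences were positive, at 0.32 ± 0.176, 0.45 ± 0.23 and 0.55 ± 0.163. Only for CG13856 did the arrays not overlap at 0 h, with EcRi 1.46-fold above control. At 4 h all 3 were negative, at -0.29 ± 0.176, -0.58 ± 0.23 and -0.20 ± 0.163, with every EcRi array below every control array for Pepck1 and CG5065 and overlap for CG13856. The nearest to the 1.5-fold limit was CG5065 at 4 h, 1.49-fold lower in EcRi. None of the 3 genes was past both limits at any stage, beside 2.94%, 7.69% and 13.4% of all probe sets in order of stage. By SAM with the same fold limit the count was also 0, beside 915, 1341 and 2479 of the 13966 probe sets. An unadjusted p under 0.05 was found for 1 of the 3 at each stage, beside 1774, 3235 and 4260 of all probe sets. Without 1 array, CG5065 at 4 h was past both limits when EcRi 4 h replicate 2 was left out (-0.81), and CG13856 at 0 h when control 0 h replicate 2 was (0.61).

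The order of the 6 groups by mean intensity was the same for Pepck1 and CG5065. Both were lowest in controls at -4 h (means 2432 and 137.7), followed by EcRi at -4 h (2931 and 142.1), control at 0 h (3512 and 158.7) and EcRi at 0 h (4388 and 219), and each of these overlapped its neighbour in the order. EcRi at 4 h came next (6162 and 396.1) and control at 4 h was highest (7530 and 569.3), neither overlapping its neighbours. For CG13856 the order began with control at 0 h (136.3), then EcRi at -4 h (170.9), EcRi at 0 h (198.7) and control at -4 h (225.5), of which only EcRi at 0 h and control at -4 h overlapped. Its highest groups, EcRi (371.5) and control (417.9) at 4 h, overlapped each other and no other group.

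In proportion to the control rise, the log2 change from 0 to 4 h in EcRi animals, which passed the test only for CG13856, was 45.2% for Pepck1, 44.4% for CG5065 and 53.9% for CG13856. The difference between the strains in this change, given as a description, was -0.61 ± 0.249, -1.03 ± 0.325 and -0.75 ± 0.231. Past both limits were 0 of 3, beside 2.65% of all probe sets. An unadjusted p under 0.05 was found for 3 of 3, beside 1448 of the 13966 probe sets. Without EcRi 4 h replicate 2 the differences of CG5065 (-1.26) and CG13856 (-0.92) were past both limits, as was that of CG5065 without EcRi 0 h replicate 1 (-1.21). Part of this difference came from a higher starting level in EcRi at 0 h and part from a lower level at 4 h. For the change from -4 to 0 h the differences were 0.05 ± 0.249, 0.43 ± 0.325 and 0.93 ± 0.231. The last, for CG13856, was past both limits, 1 of 3 genes beside 1.44% of all probe sets, and was no longer past them in 15 of the 18 fits that left out 1 array (0.78 to 1.07).

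The same 2 changes were compared over all probe sets that rose in controls. Of the 272 probe sets called higher from 0 to 4 h in controls, 44 (16.2%) were also called higher in EcRi animals and 1 was called lower. Their median change was 1.07 in controls and 0.21 in EcRi, with EcRi quartiles at 0.00 and 0.61, and 199 had an EcRi change above 0. The EcRi change of CG13856 was reached or passed by 42 of the 272 (itself included), that of CG5065 by 48 and that of Pepck1 by 81. By control change the genes ranked 69, 57 and 129 among these probe sets. Both changes of the 3 genes are thus within the spread of the group, with EcRi changes above its median. The probe sets were picked by their control change and the genes for a retained rise, so these medians and places are a description.

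**Figure D3:**
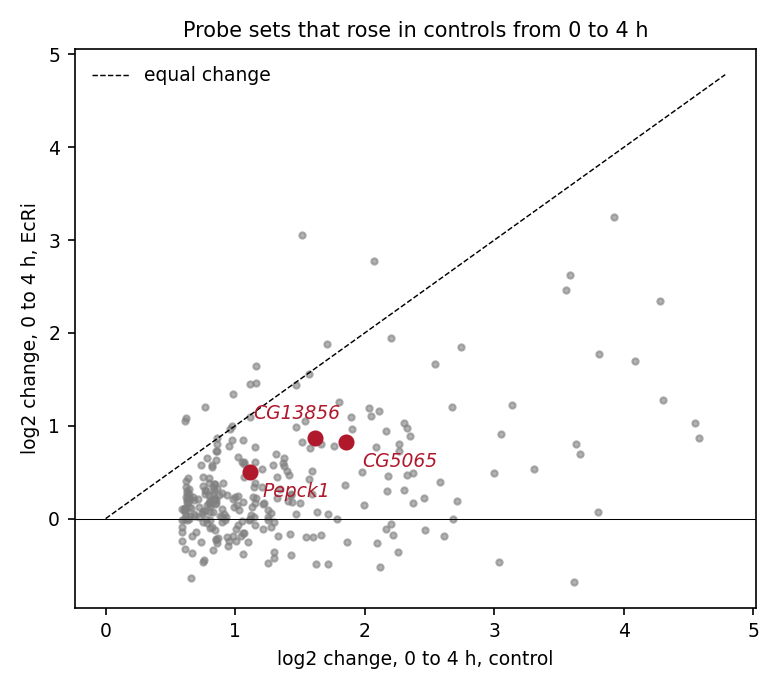
Log2 change from 0 to 4 h in EcRi animals (vertical) against that in controls (horizontal) for the 272 probe sets called higher in controls, grey, with the 3 genes in red and a dashed line where both changes are equal. Most points lie below the dashed line, with a median of 0.21 in EcRi against 1.07 in controls, and the 3 genes lie between the median and the line.

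The spread of the EcRi animals at 4 h was shared by the 3 genes. Replicate 1 was the lowest of its group for each of them, by -0.17 from the group mean on the log2 scale for Pepck1, -0.53 for CG5065 and -0.39 for CG13856, and replicate 2 was the highest, by 0.14, 0.47 and 0.35. At 0 h, EcRi replicate 1 was lowest for Pepck1 and CG5065 and highest for CG13856. RpL32, the ribosomal protein transcript known as rp49 that served as the loading control of the blots, measured 7929 to 8317 on the EcRi arrays at 4 h. Its group means over all 6 groups lay between 7334 and 8180. At 4 h RpL32 was higher in EcRi than in control without overlap, by 0.16 ± 0.0435 (1.12-fold, limma adjusted p = 0.027), the opposite sign to the 3 genes. Whether a difference in staging or in the strength of the EcRi treatment accompanied these low arrays was not tested. An alternative added after the data were seen left out 4 arrays (control -4 h replicate 1, EcRi 0 h replicate 1, EcRi 4 h replicates 1 and 3). The single EcRi array that it keeps at 4 h is replicate 2, the highest of its group for each of the 3 genes. It was assumed to vary like the arrays of the other groups. The EcRi change from 0 to 4 h of CG5065 was then 1.11 and its strain difference at 4 h -0.11. Both values depend on which array was kept, so no conclusion is drawn from them.

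Across the 18 arrays the genes ran alike to different degrees. The Pearson correlation of log2 intensity was 0.936 between Pepck1 and CG5065, 0.852 between CG5065 and CG13856, and 0.709 between Pepck1 and CG13856. The 18 points share 6 groups, and the deviations from the group means correlated at 0.543, 0.415 and -0.06 for the same pairs.

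Pepck2, the adjacent paralog that encodes the other phosphoenolpyruvate carboxykinase, was measured by its own probe set and was not called in either strain. Its control means were 2435, 2590 and 2797 at -4, 0 and 4 h, with arrays from 2564 to 2966 at 4 h, and its EcRi means were 1925, 2198 and 2249. The change from 0 to 4 h was 0.11 ± 0.0742 in controls (limma, adjusted p = 0.79) and 0.03 ± 0.0742 in EcRi (adjusted p = 1). Pepck2 was lower in EcRi than in control at every stage without overlap, by -0.34, -0.23 and -0.32, differences whose adjusted p was 0.025, 0.074 and 0.012 and whose size stayed under 1.5-fold. Whether the probes of the 2 paralogs cross-hybridise was not tested.

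CG5056 is the other number that the study gives for its second gene. Its control means were 257.6, 331.2 and 286.9 in order of stage, and its EcRi means 218.8, 206.3 and 224. In controls it was highest at 0 h, where the arrays (327 to 336) all lay above those at -4 h (236 to 270), a change of 0.37 ± 0.067 (limma, adjusted p = 0.0073) under the fold limit. At 0 h CG5056 was lower in EcRi by -0.68 ± 0.067 (1.61-fold, adjusted p = 2.4e-05), which was called. From 0 to 4 h it changed by -0.21 ± 0.067 in controls (adjusted p = 0.12) and 0.11 ± 0.067 in EcRi (adjusted p = 0.53). CG5065 thus rose from 0 to 4 h in controls while CG5056 was not called there, and the difference between the 2 genes was not tested.

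Other enzymes around these genes were taken from lists chosen for what Pepck1 and CG5065 encode, with the 3 genes left out and the brightest probe set used for each gene. Of the 4 gluconeogenic enzymes Pepck2, PCB (pyruvate carboxylase, which makes oxaloacetate), fbp (fructose-1,6-bisphosphatase) and G6P (glucose-6-phosphatase), 0 were called in either direction from -4 to 0 h or from 0 to 4 h in either strain by limma, and by SAM 1 was called, in controls from -4 to 0 h. Their median change from 0 to 4 h was 0.23 in controls and 0.04 in EcRi, beside 0 over all probe sets. For fbp, singled out after its values were seen, the control means were 296.3, 474.4 and 676.8 and the EcRi means 416.5, 378.6 and 364.7, with a control change from 0 to 4 h of 0.51 ± 0.497, and the EcRi arrays at 4 h spanned 219 to 613.

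Of 9 genes listed around the supply of glycerol 3-phosphate or oxaloacetate, 7 were measured. In controls from 0 to 4 h, 1 was called higher and 0 lower, with 0 called in the other 3 comparisons of successive stages. Over all probe sets 1.95% were called higher and 2.66% lower in controls from 0 to 4 h. The gene was Men, malic enzyme, which turns malate into pyruvate and yields NADPH, and so makes neither glycerol 3-phosphate nor oxaloacetate. Its brighter probe set had means of 945.9, 963.8 and 2603 in controls and 1198, 1969 and 1511 in EcRi, and changed from 0 to 4 h by 1.43 ± 0.352 in controls (limma, adjusted p = 0.030) and -0.39 ± 0.352 in EcRi (adjusted p = 0.74). The control call was lost without control 0 h replicate 3 (adjusted p = 0.11) or control 4 h replicate 3 (adjusted p = 0.10). The second Men probe set did not show it, with -0.24 ± 0.22 in controls (adjusted p = 1) and 0.61 ± 0.22 in EcRi (adjusted p = 0.24), so the probe sets of Men disagree.

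Of 16 other fatty acyl-CoA reductases, 13 were measured, and 0 were called higher from -4 to 0 h or from 0 to 4 h in either strain, beside 1.44% and 1.95% of all probe sets in controls and 0 and 0.687% in EcRi. From 0 to 4 h, CG12268 was called lower in controls (1 of 13, beside 2.66% of all probe sets). Its control means were 155.7, 351.1 and 85.95, with all 3 arrays at 4 h below the floor, so the measured change of -1.94 ± 0.437 (limma, adjusted p = 0.018) uses the floor and the gene was at least 3.83-fold lower at 4 h. In EcRi animals its arrays at 4 h spanned 126 to 608, around a mean of 298.7 after 116.3 at 0 h. From -4 to 0 h, CG4770 was called lower in controls (1 of 13, beside 1.67% of all probe sets; means 238 and 138.4, change -0.75 ± 0.196, limma adjusted p = 0.057), and the call was lost without either of control -4 h replicates 1 and 2 or any one of the 3 control arrays at 0 h (adjusted p 0.10 to 0.23). The median change of the family from 0 to 4 h was 0 in controls and -0.01 in EcRi.

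Of 16 genes of fatty acid and cuticular lipid synthesis, 14 were measured, 2 of them at the floor on all arrays, and 1 was called higher and 0 lower in controls from 0 to 4 h, with 0 in the other 3 comparisons, beside 1.95% and 2.66% of all probe sets called higher and lower. The gene was Hacd1, a 3-hydroxyacyl-CoA dehydratase of fatty acid elongation. It measured 727.2 at 0 h and 1140 at 4 h in controls (means, change 0.65 ± 0.136, limma adjusted p = 0.011) and 768.2 and 801.8 in EcRi (change 0.03 ± 0.136, adjusted p = 1). The list's median change from 0 to 4 h was 0.15 in controls and 0 in EcRi.

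Among the nearest neighbours with a probe set in the Release 6 annotation, none was called higher from 0 to 4 h in controls. Over all probe sets 1.95% were called higher and 2.66% lower there, so with so few neighbours the absence of a higher call says little about them. On the side of Pepck1 away from Pepck2 lies Rgk2, a small GTPase of the Rad/Gem/Kir family, which fell from 0 to 4 h in controls by 2.58 ± 0.217 on the log2 scale (limma, adjusted p = 4.3e-06) and changed by -0.17 ± 0.217 in EcRi (adjusted p = 0.87). CG5065 lies between CG8303, another fatty acyl-CoA reductase that was below the floor on 15 of 18 arrays, and Alk, the anaplastic lymphoma kinase homologue, which changed by -0.18 ± 0.133 in controls (adjusted p = 0.89). Next to CG13856 lies CG13855, at the floor on all 18 arrays. On its other side, the nearest gene with a probe set of its own, CG13857, lies beyond 4 others, and its control change was 0.46 ± 0.617 (adjusted p = 1).

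The probe sets most like each gene were found by the Pearson correlation of log2 intensity over the 18 arrays, among 1701 candidates with an SD of at least 0.5. For Pepck1 they were mas (0.954), a protein of the serine protease family without proteolytic activity, CG9689 (0.949) and vir-1 (0.941), a gene induced by viral infection. For CG5065 they were Mur89F (0.969), a mucin-related gene, CG9689 again (0.967) and CG12481 (0.965). For CG13856 they were Mur89F (0.91), CG13737 (0.909) and dy (0.905), the dusky gene, whose product is a zona pellucida domain protein of the apical epidermal surface. All 7 genes had higher means at 4 h than at 0 h in both strains. They were picked for likeness on these same arrays and for a minimum SD, so their rises and the size of these are a description. Their log2 changes from 0 to 4 h ran from 2.16 (CG9689) to 4.3 (CG12481) in controls and from 0.80 (vir-1) to 2.35 (dy) in EcRi, each larger in controls than in EcRi and each larger in controls than those of Pepck1, CG5065 and CG13856.

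**Figure D4:**
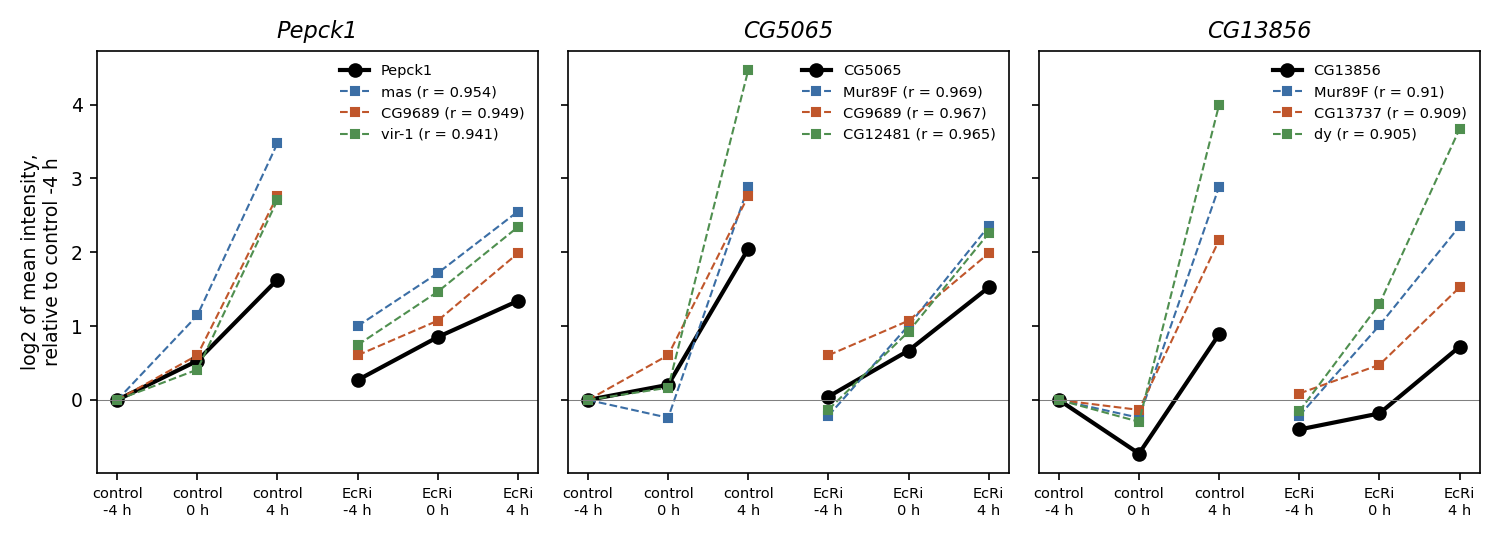
Log2 of the mean intensity of each group (3 arrays) relative to control at -4 h, for each of the 3 genes (black circles) and the 3 genes most like it (coloured squares, dashed), with the Pearson correlation over 18 arrays in the legend. All lines rise from 0 to 4 h in both strains, and of the genes drawn, only CG13856 falls below -0.5, in controls at 0 h.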

How the data were processed

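Groups were taken from the sample labels. The deposited intensity values, on a linear scale per probe set, were normalised between arrays and summarised by the authors with dChip 1.2; which probe-level model, background step and baseline array they used is not stated in the sources read. Gene symbols came from the platform annotation, in which 12443 of 13966 probe sets carried 1 symbol, 327 several and 1196 none, and neighbours came from the RefSeq table of the Release 6 assembly, used for names and gene order only. Values were raised to a floor at the 20th percentile (91.58) and log2 was taken. Using limma 3.58.1 (R 4.3.3), 1 linear model with 6 group means was fitted over the 18 arrays (12 residual degrees of freedom, prior 0.588), with two-sided p adjusted by the Benjamini-Hochberg method over 13966 probe sets. A call needed an adjusted p under 0.10 and 1.5-fold. These are the thresholds of the study's methods, which used SAM; a reimplementation of SAM was an alternative. The method was tested on simulated data. The study states 3 independent collections for each time point, with 10 animals per RNA sample, so p-values measure the spread between collections. The precision is limited by the number of arrays, as an intensity has no count behind it.

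The genes and lists were chosen with earlier results of these data known. The change from 0 to 4 h in each strain was tested for the 3 genes. The genes were chosen as little dependent on EcR from the same EcRi arrays, so the test in EcRi is not independent of the choice. Their other contrasts, which the choice may also have used, are described by their values and by counts of calls, with no p for a single gene. The other genes named are CG5056, RpL32, Pepck2, each list gene called in a change within a strain (at most 6 per list), the 3 probe sets most correlated with each gene and the nearest neighbour on each side with a probe set of 1 symbol. The alternatives were other floors, a pseudocount of 50, quantile or median normalisation, brighter probe sets only, a variance trend, only the arrays compared, a replicate block, SAM, other thresholds, and arrays left out. Same-numbered arrays did not deviate together in the median (45 pairs, median correlation -0.01, against 0.0053 for other numbers). Their correlations ran from -0.57 to 0.82, and 10 of 18 arrays correlated best with an array of their own number. The numbers were not treated as pairs in the main fit. The primers came from the study's supplementary text, for CG13856 only.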

Additional observations from a re-analysis of the deposited data

Results flagged for a closer look

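The change of CG13856 from -4 to 0 h differed between the strains by 0.928 ± 0.231 on the log2 scale, past both limits in the fit across all probe sets, with control arrays falling from 183 to 272 down to 126 to 148 and EcRi arrays from 160 to 177 up to 190 to 210. It was past both limits in 11 of 30 alternative limma fits and in 3 of the 18 that left out 1 array (without control -4 h replicate 2, EcRi 4 h replicate 1 or EcRi 4 h replicate 2), and the sign was the same in all of them.

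The change from 0 to 4 h differed between the strains by -1.83 ± 0.498 for the brighter probe set of Men (limma, adjusted p = 0.094), past both limits in 13 of 30 alternative limma fits and in 4 of the 18 that left out 1 array (range of the value -2.17 to -1.5). It differed by 2.98 ± 0.617 for CG12268 (limma, adjusted p = 0.021), which was past both limits in all 18 fits that left out 1 array, with the control arrays at 4 h below the floor and the EcRi arrays at 4 h spread from 126 to 608.

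Gk1, a glycerol kinase of the list that supplies glycerol 3-phosphate, was singled out after its values were seen. Its change from 0 to 4 h differed between the strains by -0.895 ± 0.245 (limma, adjusted p = 0.096), and it was lower in EcRi at 4 h by -1.02 ± 0.173 (adjusted p = 0.0017), with control arrays at 198 to 260 and EcRi arrays at 73 to 153, 1 of them below the floor. The difference in change was past both limits in 3 of the 18 fits that left out 1 array (without control -4 h replicate 1, EcRi 0 h replicate 1 or EcRi 4 h replicate 2), and the difference at 4 h in all 18.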

How the results depend on the processing

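The control rise from 0 to 4 h kept its call for all 3 genes in every alternative limma fit and by SAM, with values from 1 to 1.26 for Pepck1, 1.57 to 1.97 for CG5065 and 1.23 to 1.68 for CG13856. Among 30 alternative limma fits, the EcRi rise of CG5065 passed both limits with a floor at the 40th percentile (178.5), at 0.791. It also passed with the pseudocount (0.702), after quantile normalisation (0.838), with medians aligned (0.808) and with brighter probe sets only (0.823). With the replicate number as a block it passed at 0.823 (limma, adjusted p = 0.087). With the 2 low EcRi arrays left out, added after the data were seen, it passed at 0.903. Of the fits without 1 array (0.589 to 1.09), only the one without EcRi 4 h replicate 1 passed. With 4 arrays left out the value was 1.11, where the single EcRi array at 4 h, replicate 2, was the highest of its group and was assumed to vary like the other groups. The EcRi rise of Pepck1 passed after quantile normalisation (0.627, limma adjusted p = 0.07). That of CG13856 lost its call under a 2-fold limit (0.873) and on the compared arrays only (0.873, limma adjusted p = 0.63). The latter fit has fewer arrays for the variance and takes it from the EcRi arrays at 0 and 4 h alone. In it 1 probe set was called in all.

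The 40th percentile floor, which lies above many values of the dimmer genes, moved CG5065 from -4 to 0 h in EcRi to 0.303 and from -4 to 4 h to 1.67 in controls and 1.09 in EcRi, and moved CG13856 from -4 to 0 h in controls to -0.318, its strain difference at 0 h to 0.153 and its differences in change to 0.472 and -0.353. The pseudocount gave CG5065 1.72 from -4 to 4 h in controls. Differences described without a p passed both limits in some limma fits: CG5065 in its change from 0 to 4 h in 6 of 30, CG13856 in 2 and Pepck1 in 1, CG5065 between strains at 4 h in 2 and at 0 h in 2, and CG13856 at 0 h in 1. From -4 to 0 h in controls, CG13856 was past them in 24 of 30 and Pepck1 in 2. Without the 2 arrays that stood apart, or the 4, the Pepck1 difference in change from -4 to 0 h was 0.285. Leaving out the 4 kept only replicate 2, the highest of its group, for EcRi at 4 h, so the values that follow depend on that array. Strain differences at 4 h were then -0.112 for CG5065 and 0.147 for CG13856, whose sign turned. The CG13856 difference in change from 0 to 4 h was -0.36 (-0.511 without the 2 low EcRi arrays). The EcRi changes from -4 to 4 h were 1.91 for CG5065 and 1.44 for CG13856. Differences of EcRi from control in that change were -0.342 for Pepck1, -0.162 for CG5065 and 0.534 for CG13856.

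Counts of called probe sets moved most in EcRi. From -4 to 0 h the EcRi count of 0 became 1 (40th percentile floor, pseudocount, compared arrays only), 3 (medians aligned), 21 (SAM), 10 (2 low arrays out) and 39 (4 out), and 0 to 3 without 1 array. From 0 to 4 h the EcRi count of 205 became 1 (compared arrays only), 129 (adjusted p under 0.05), 81 (2-fold), 411 (no fold limit), 857 (2 apart out), 423 (4 out), and 143 to 459 without 1 array (459 without EcRi 0 h replicate 1). Of these, higher and lower were 96 and 109, but 142 and 88 after quantile normalisation, 80 and 379 without EcRi 0 h replicate 1, 144 and 713 with the 2 apart out, and 291 and 132 with 4 out. In controls the count of 434 from -4 to 0 h became 1078 (SAM), 196 (2-fold), 725 (no fold limit), 670 (4 out), 794 (2 low out) and 270 to 731 without 1 array, and 643 from 0 to 4 h became 385 (2-fold). The replicate block changed no other call of the 3 genes within a strain, and 10 of 18 arrays correlated best with an array of their own number. The arrays limit the precision by their number, and the higher floor moved values of CG5065 and CG13856 and none of Pepck1.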
